A study of Mus musculus with 12 samples.

Results

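Nuclear receptors are a family of transcription factors, many of them switched by a small fat-soluble ligand, and their expression was examined across 12 arrays of mouse embryonic fibroblasts. Members were chosen by gene symbol alone: the Nr0 to Nr6 symbols, the thyroid hormone, retinoid, vitamin D, progesterone, estrogen and estrogen-related receptors, the ROR and HNF4 receptors and Ppard, without Nr3c1. The rule itself used no measured value, although it was set with earlier results of these data known. This took 42 of the 19938 genes tested, each through 1 probe set. Of these, 40 encode receptors. The remaining 2 are Hnf4aos, an antisense transcript of Hnf4a, and Nr2c2ap, a protein associated with Nr2c2. The rule did not take Ppara, Pparg, Nr1i2 or Nr1i3, and it found no probe set with a single gene for Nr1h2 or Nr2e3.

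The fibroblasts came from C57BL6 embryos at embryonic day 14 and were grown in DMEM with 10% serum. They were wild type (WT) or D1D2KO, which are deficient in DGAT1 and DGAT2, the acyltransferases of the last step of triacylglycerol synthesis. Both genotypes were studied undifferentiated and after adipogenic induction, with 3 samples in each of the 4 groups. Induction began 2 days after confluency with 1 µM dexamethasone, 500 µM isobutylmethylxanthine, 5 µg/ml insulin and 15 µM troglitazone for 2 to 3 days. It went on with insulin and troglitazone for 2 days and then plain medium. Dexamethasone is a glucocorticoid receptor agonist, troglitazone is a PPAR gamma agonist and isobutylmethylxanthine raises cyclic AMP by blocking phosphodiesterases. Drug exposure, time in culture and cell state therefore cannot be told apart between undifferentiated and differentiated groups. The replicates are described as biological without naming the embryos behind them, so a p-value speaks only of the spread among these 12 samples.

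Most nuclear receptors bind DNA through zinc fingers and hold a ligand such as a steroid, a retinoid or an oxysterol in a hydrophobic pocket. Ligand binding exchanges corepressors for coactivators on the receptor. Lipid and retinoid sensors usually work as heterodimers with a retinoid X receptor (RXR), steroid receptors as homodimers released from chaperones, and many orphan members act without a known natural ligand. PPAR gamma is the master regulator of adipocyte formation, and LXR, REV-ERB, COUP-TF and retinoic acid receptors are known to modify it.

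Values were log2 array signals, on which a difference of 1 is a doubling, and no gene's level was set against another gene's. Across arrays the gene signals had lower quartiles from 4.41 to 4.68. A signal below the lower quartile cannot be told from background, because no detection calls were used. Of the 40 receptors, 27 lay above the lower quartile on all 12 arrays, 7 lay below it on all 12 and 6 on some. The lower quartile itself was 4.41 to 4.56 on WT arrays and 4.58 to 4.68 on D1D2KO arrays. In D1D2KO cells Dgat1 signal differed from WT by -1.34 (undifferentiated) and -1.39 (differentiated), and Dgat2 signal by -0.47 and -1.67. For each marker list the signals were summed unlogged and the sum is given as log2, so the brightest markers weigh most. For 11 adipocyte markers it lay between 10.52 and 10.62 in undifferentiated cells of both genotypes. It lay between 14.37 and 14.61 in WT differentiated cells and between 14.66 and 14.91 in D1D2KO differentiated cells. For 12 fibroblast markers the corresponding ranges were 15.34 to 15.39, 14.87 to 14.96 and 14.55 to 14.67. Markers of macrophages (10 genes) lay between 13.13 and 13.23 in undifferentiated cells, between 12.04 and 12.28 in WT differentiated cells and between 11.94 and 12.10 in D1D2KO differentiated cells. The part of these marker shifts in the receptor results was not tested. In bulk samples, fewer cells of a type and less RNA per cell cannot be told apart.

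The upstream sequences of 4 receptors are shown because they belong to the NR4A trio, of which Nr4a1 and Nr4a2 fell on differentiation while Nr4a3 lay mostly at background signal, or because they hold a retinoid-type repeat in a receptor whose signal also fell (Rarb). Sequences are the 250 bases before the RefSeq start on GRCm38.p6, 5′ to 3′ on the gene's strand: Nr4a1 at chr15:101266596-101266845 (+), Nr4a2 at chr2:57124004-57124253 (-), Nr4a3 at chr4:48045055-48045304 (+) and Rarb at chr14:16575477-16575726 (-). Capitals mark TGACG on either strand (CGTCA on the strand shown), the half-site of the element that CREB, the cyclic AMP response factor, is known to bind. In Rarb they mark the match to GTTCANNNNNAGTTCA, a direct repeat of the kind bound by RAR with RXR.
Nr4a1: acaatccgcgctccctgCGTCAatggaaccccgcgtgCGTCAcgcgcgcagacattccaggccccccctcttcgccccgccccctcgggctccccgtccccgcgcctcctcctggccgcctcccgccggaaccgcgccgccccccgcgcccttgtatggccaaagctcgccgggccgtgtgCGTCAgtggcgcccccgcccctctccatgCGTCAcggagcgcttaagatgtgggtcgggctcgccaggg
Nr4a2: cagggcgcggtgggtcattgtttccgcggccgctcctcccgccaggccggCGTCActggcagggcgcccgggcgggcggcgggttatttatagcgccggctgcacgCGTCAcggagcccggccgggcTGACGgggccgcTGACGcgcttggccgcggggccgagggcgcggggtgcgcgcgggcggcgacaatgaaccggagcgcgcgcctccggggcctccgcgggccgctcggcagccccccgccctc
Nr4a3: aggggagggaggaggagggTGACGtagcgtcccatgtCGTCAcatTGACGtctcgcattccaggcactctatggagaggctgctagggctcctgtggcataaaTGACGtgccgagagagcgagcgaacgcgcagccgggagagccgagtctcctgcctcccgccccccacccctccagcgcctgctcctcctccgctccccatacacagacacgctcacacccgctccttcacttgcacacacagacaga
Rarb: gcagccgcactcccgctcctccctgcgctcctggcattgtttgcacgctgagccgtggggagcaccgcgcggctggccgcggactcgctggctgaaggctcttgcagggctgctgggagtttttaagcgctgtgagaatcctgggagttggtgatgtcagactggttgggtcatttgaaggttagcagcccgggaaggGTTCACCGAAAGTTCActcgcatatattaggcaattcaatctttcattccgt

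Each of the NR4A windows held 4 TGACG matches. These began at -233, -213, -69 and -40 in Nr4a1, at -200, -144, -123 and -111 in Nr4a2, and at -231, -213, -205 and -147 in Nr4a3, counted back from the start site. The shares that follow count matches in longer windows than those shown, from 250 bases before to 50 bases after the start. Among the 32851 promoters of the table, 76 (0.231%) held at least 4 matches. Among the 56 promoter windows listed for the receptors, only these 3 did (5.36%). At least 1 match was present in 20.8% of all windows and in 26.8% of the receptor windows. The Rarb repeat, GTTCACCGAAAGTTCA, lay at -52 to -37, and 11 windows in all (0.0335%) matched its pattern, of which Rarb was the sole receptor. That pattern is the Rarb repeat with its spacer bases left free, so the match in Rarb was given in advance. The cut of 4 matches likewise equals the count in the NR4A windows shown. Neither share is therefore an independent comparison of these genes with the rest. Another pattern, AGGTCA, the nuclear receptor half-site, was found on either strand in 17.9% of receptor windows and 16.3% of all windows. These matches describe letters in the window and nothing about binding in these cells. Of the 40 receptors, 37 had a listed promoter, and Thra, Nr5a1 and Hnf4g had none.

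Differentiation changed about as many receptors in one genotype as in the other, and mostly the same ones. In WT cells 19 of 40 receptors (47.5%) passed limma's moderated test at an adjusted p under 0.05, 7 higher and 12 lower, against 34.1% of all genes (14.7% higher and 19.4% lower). In D1D2KO cells 18 of 40 (45.0%) passed, 7 higher and 11 lower, against 36.7% of all genes (15.4% higher and 21.2% lower). Of the receptors, 6 rose in both genotypes, 10 fell in both and 0 went in opposite directions. Those that rose in both were Nr1h3, Ppard, Rxrg, Rora, Thrb and Esrra. Those that fell in both were Pgr, Esr1, Nr1d2, Nr4a1, Nr4a2, Rarb, Rarg, Nr2f1, Nr2f2 and Nr2c2. Hnf4a (higher), Thra and Nr4a3 (lower) passed in WT alone, and Rxra (higher) and Vdr (lower) in D1D2KO alone, but none of these passed the test of a difference between the responses. The median difference over the 40 receptors was 0.00 in WT and -0.04 in D1D2KO cells, beside 0.02 and 0.01 over all genes, and the median absolute difference was 0.21 and 0.19, beside 0.17 and 0.17. Changes of at least 2-fold were few, with 1 receptor higher (Nr1h3) and 2 lower (Pgr and Esr1) in each genotype. Arrays of the states did not overlap for 24 of the 40 receptors in WT and 22 in D1D2KO cells. Over all genes the shares were 43.9% and 48.1%, so a lack of overlap says little by itself.

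**Figure D1:**
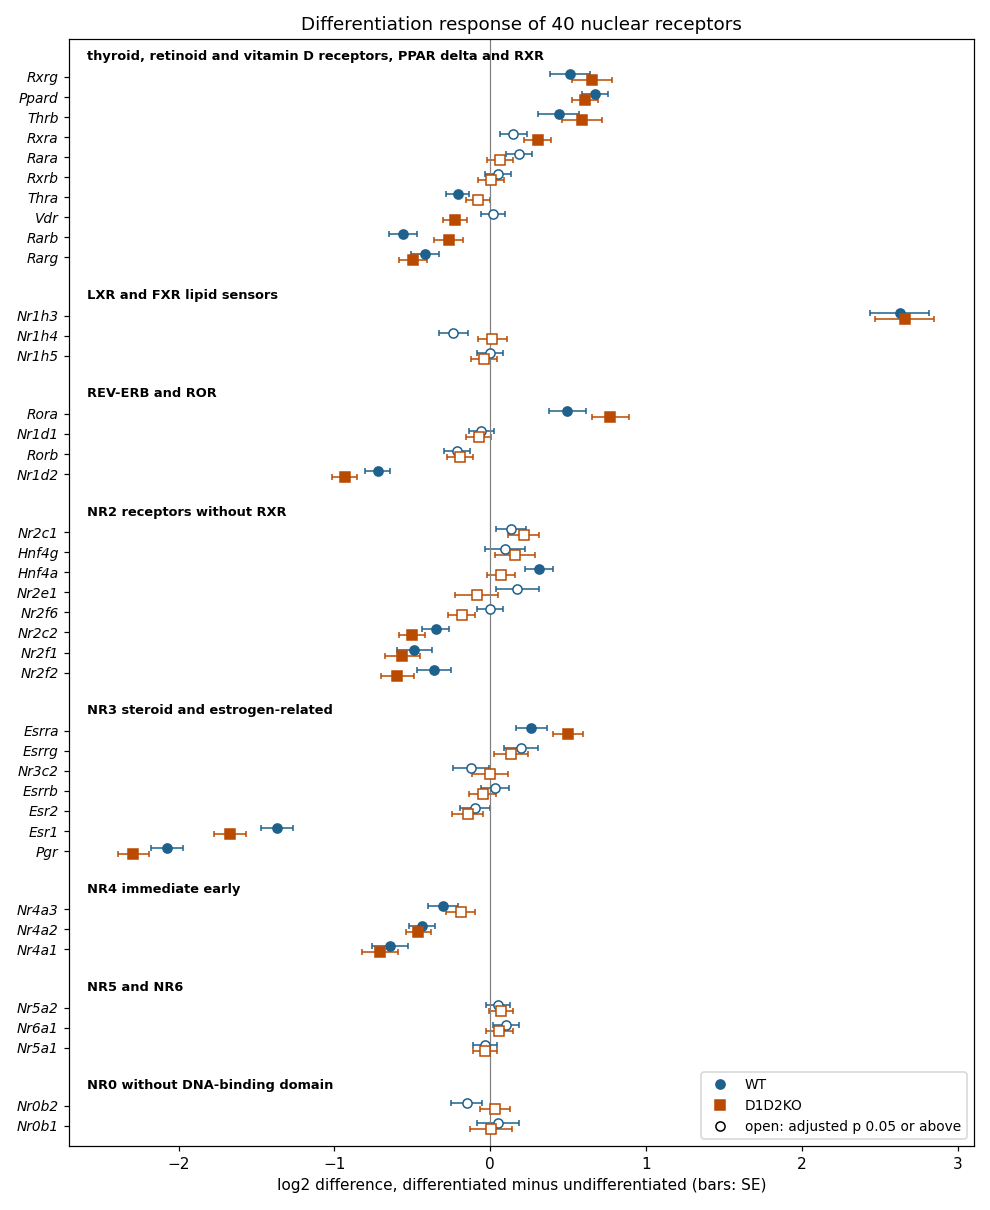
Log2 differences on differentiation (x axis, differentiated minus undifferentiated) of the 40 receptors grouped by role, in WT and D1D2KO cells, with bars for the standard error and open symbols for an adjusted p of 0.05 or above. Nr1h3 stands at 2.63 and 2.66 and Pgr at -2.07 and -2.29, while most other receptors lie within 1 of 0.

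Among the lipid sensors, Nr1h3, which encodes LXR alpha, the oxysterol receptor that drives cholesterol efflux and fatty acid synthesis genes, rose most. Its signals were 4.96, 4.43 and 5.41 in WT undifferentiated cells and 7.44, 7.59 and 7.66 in WT differentiated cells. In D1D2KO cells they were 5.08, 5.07 and 5.00 before and 8.01, 7.81 and 7.31 after differentiation. The differentiated arrays lay above all undifferentiated ones in both genotypes, and the 2 genotypes overlapped in each state. The rise was 2.63 (SE 0.19, n = 3 against 3, 6.18-fold, limma adjusted p = 9.5e-09) in WT and 2.66 (6.32-fold, adjusted p = 5.15e-09) in D1D2KO cells. The difference between the responses was 0.03, with a 95% interval from -0.53 to 0.60, which leaves room for a difference of some size either way. Nr1h4 and Nr1h5, the bile acid and sterol receptors of the FXR type, lay below the lower quartile on all 12 arrays, and neither passed in any comparison.

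Genes known as LXR targets were called higher more often than lower. Of 14 measured, 9 were higher and 1 lower in WT, with a median of 0.27, and 6 were higher and 1 lower in D1D2KO cells, with a median of 0.18. As background to this and the later lists, 14.7% of all genes were higher and 19.4% lower in WT, and 15.4% higher and 21.2% lower in D1D2KO cells. Without the second WT undifferentiated array only 6 were called in WT, all higher. Apoc1, an apolipoprotein, rose by 4.37 in WT cells and 3.83 in D1D2KO cells. Scd1, the stearoyl-CoA desaturase, rose by 3.42 and 3.54, Srebf1, the master regulator of fatty acid synthesis genes, by 2.03 and 1.69, and Abcg1, a cholesterol exporter, by 1.85 and 1.28. Apoe, chosen after its values were seen, was the member that fell, by 0.24 and 0.46, though its WT call was lost without any WT undifferentiated or the third WT differentiated array (limma adjusted p up to 0.112). Among well-expressed targets without a call, Mylip differed by 0.03 in WT, and Abca1 by 0.20 and Pltp by -0.18 in D1D2KO cells. In WT cells Abca1 (0.28, limma adjusted p = 0.0332) and Pltp (0.25, adjusted p = 0.0466) were called higher. The Pltp call was lost with only the groups compared (adjusted p = 0.0744). Several of these genes also belong to adipocyte formation in general, and which regulator moved them was not tested.

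Some oxysterol and bile acid enzymes make or clear LXR ligands. Of 11 measured, 3 rose and 1 fell in each genotype, with medians of 0.08 in WT and 0.00 in D1D2KO cells, and the 36.4% called lay near the 34.1% and 36.7% of all genes. Cyp7a1, without a call in either genotype, is also counted among the LXR targets. In D1D2KO cells the call of Sult2b1, a sulfotransferase chosen after its values were seen, was lost with the replicate block (limma adjusted p = 0.0516). Cyp7b1, which hydroxylates oxysterols and starts their clearance, rose by 1.65 in WT cells and 0.96 in D1D2KO cells. Hsd3b7, a later enzyme of the same route, rose by 0.63 and 0.66. Cyp27a1, the mitochondrial sterol hydroxylase that makes an LXR ligand, fell by 0.54 and 0.64.

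Ppard encodes PPAR delta, a fatty acid receptor that turns on fatty acid oxidation genes. The signals were 6.77, 6.94 and 6.69 in WT undifferentiated and 7.55, 7.48 and 7.39 in WT differentiated cells. The D1D2KO cells gave 6.88, 6.95 and 6.87 before and 7.55, 7.45 and 7.52 after. Both genotypes moved without overlap between the states, by 0.67 (SE 0.08, n = 3 against 3, limma adjusted p = 5.83e-06) in WT and 0.61 (adjusted p = 1.23e-05) in D1D2KO cells. Of 12 PPAR delta targets measured, 10 rose and 2 fell in WT (median 1.55), and 10 rose and 1 fell in D1D2KO cells (median 2.01). Pdk4, the kinase that closes pyruvate dehydrogenase, rose by 2.63 and 2.59. Angptl4, an inhibitor of lipoprotein lipase, rose by 2.45 and 2.59. The lipid droplet coat gene Plin2 rose by 2.05 in each genotype. Most of these genes are also known targets of PPAR gamma, the receptor that troglitazone activates. Fabp3 and Cpt1a, both chosen after their values were seen, were the members that fell in WT, by 0.33 and 0.57. The Fabp3 call was lost without the third undifferentiated or the first differentiated WT array (limma adjusted p up to 0.0869). In D1D2KO cells Cpt1a fell by 0.50, and Fabp3 differed by -0.19 without a call.

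**Figure D2:**
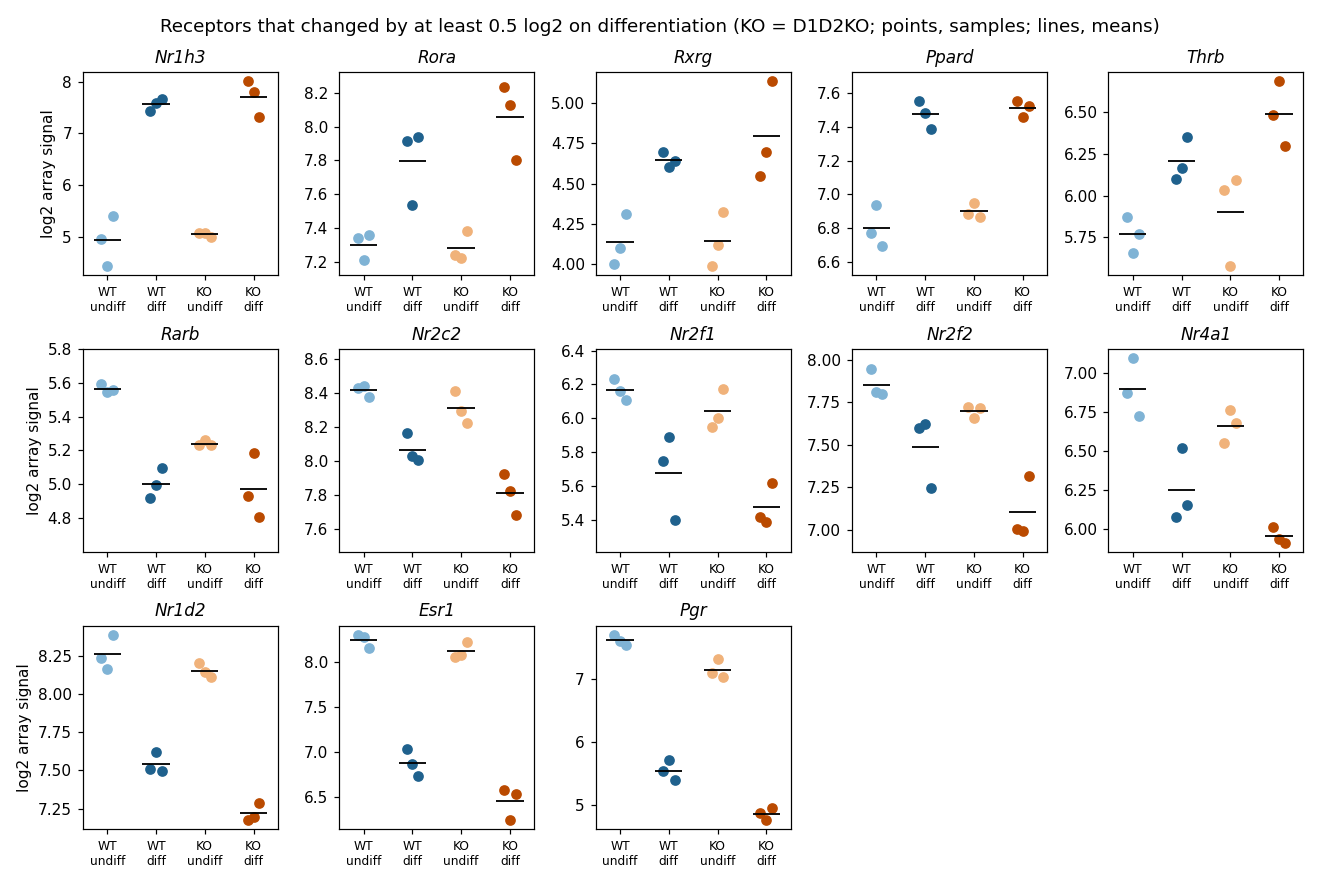
Log2 array signal (y axis) of the receptors that changed by at least 0.5 on differentiation in either genotype, with the 3 samples of each group as points and the group mean as a line. KO stands for D1D2KO, and each panel has its own scale. Nr1h3 and Ppard are higher, and Pgr, Esr1, Nr1d2 and Nr4a1 lower, in differentiated cells of both genotypes, and Pgr is lower in D1D2KO than in WT cells of the same state.

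The RXRs are the shared partners of these sensors. Rxra, the main form in fat and liver, rose by 0.30 (SE 0.09, limma adjusted p = 0.0088) in D1D2KO cells, and its difference of 0.15 in WT cells did not pass (adjusted p = 0.206). Rxrb differed by 0.05 and 0.00, without a call. Rxrg signals were 3.997, 4.10 and 4.31 in WT undifferentiated and 4.70, 4.60 and 4.64 in WT differentiated cells. Signals in D1D2KO cells were 3.99, 4.12 and 4.32 before and 4.55, 4.70 and 5.14 after. The states did not overlap, but the undifferentiated arrays lay below the lower quartile, so the rises of 0.51 (limma adjusted p = 0.00526) and 0.65 (adjusted p = 0.000626) started from signals that cannot be told from background.

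Steroid receptors gave the largest falls. Pgr, the progesterone receptor, had signals of 7.71, 7.60 and 7.54 in WT undifferentiated and 5.53, 5.71 and 5.39 in WT differentiated cells. In D1D2KO cells the signals were 7.09, 7.32 and 7.03 before and 4.86, 4.76 and 4.95 after. All 4 groups were apart, with D1D2KO below WT in each state and differentiated below undifferentiated in each genotype. The differentiation change was -2.07 (SE 0.10, n = 3 against 3, limma adjusted p = 6.45e-11), to 23.7% of the undifferentiated signal, in WT. In D1D2KO cells it was -2.29 (adjusted p = 1.15e-11), to 20.4%. The D1D2KO differentiated signals lay just above the lower quartiles of those arrays (4.61 to 4.68), so this percentage is limited by background.

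Esr1 encodes estrogen receptor alpha, and the progesterone receptor gene is one of its textbook targets. Signals of Esr1 were 8.30, 8.28 and 8.15 in WT undifferentiated and 7.03, 6.86 and 6.73 in WT differentiated cells. Those of D1D2KO cells were 8.06, 8.07 and 8.22 before and 6.57, 6.24 and 6.53 after. The states were far apart in both genotypes. The change was -1.37 (SE 0.10, n = 3 against 3, limma adjusted p = 1.35e-08), to 38.7%, in WT and -1.67 (adjusted p = 7.18e-10), to 31.4%, in D1D2KO cells. Esr2, estrogen receptor beta, lay below the lower quartile on 11 arrays, and Nr3c2, the mineralocorticoid receptor, on 2, and neither passed in any comparison.

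Among 16 enzymes that make or inactivate steroids and vitamin D, 4 rose and 2 fell in each genotype, with medians of -0.02 and -0.01. That is 37.5% called, near the 34.1% and 36.7% of all genes. Hsd3b7 (higher) and Cyp27a1 (lower) are counted here as well as among the oxysterol and bile acid enzymes. Hsd17b12, which also elongates fatty acids, rose by 1.48 in WT cells and 2.04 in D1D2KO cells. Hsd11b1, which regenerates active glucocorticoid, rose by 1.26 and 1.78. Of 9 chaperones and cochaperones of steroid receptors, 2 rose in each genotype, and 2 fell in WT and 3 in D1D2KO cells. The D1D2KO call of Hspa8, chosen after its values were seen, was lost with the replicate block (limma adjusted p = 0.0549). Fkbp5, a cochaperone whose gene glucocorticoid induces, rose by 1.42 and 1.67, Bag1 rose by 0.73 and 0.64, and Dnaja1 fell by 0.45 and 0.58.

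The estrogen-related receptors, which drive mitochondrial genes together with the coactivators Ppargc1a and Ppargc1b, moved through 1 member. Esrra rose by 0.50 (limma adjusted p = 0.000494) in D1D2KO cells, from between 6.42 and 6.64 to between 6.93 and 7.17. In WT cells it rose by 0.26 (SE 0.10, adjusted p = 0.0453), from 6.52 on each array to between 6.59 and 6.94. The WT call was lost without any of 7 arrays, the 3 WT undifferentiated, the first and the third WT differentiated and the first and the third D1D2KO undifferentiated (adjusted p up to 0.193), and with only the groups compared (adjusted p = 0.0632). Esrrb lay below the lower quartile on all arrays, and Esrrg differed by 0.19 and 0.13 on differentiation, neither with a call.

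Genes known as targets of estrogen-related receptors rose nearly throughout, and which regulator moved them was not tested. Of 14 measured, 12 rose and 0 fell in WT (median 0.86), and 13 rose and 0 fell in D1D2KO cells (median 1.23). Acadm, the medium-chain acyl-CoA dehydrogenase, rose by 2.01 in WT cells and 2.66 in D1D2KO cells. Idh3a of the citric acid cycle rose by 1.62 and 2.48, citrate synthase (Cs) by 1.51 and 1.94 and cytochrome c (Cycs) by 1.44 and 2.32. Tfam, the mitochondrial transcription factor, differed by 0.18 in WT without a call and rose by 0.40 (limma adjusted p = 0.0118) in D1D2KO cells. The responses differed between genotypes for Acadm (0.66, limma adjusted p = 0.00813), Idh3a (0.85, adjusted p = 0.011) and Cycs (0.88, adjusted p = 0.0116), and these calls held without each array in turn.

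The coregulators that receptors recruit moved in both directions. Of 22 measured, 4 rose and 9 fell in WT, and 8 rose and 9 fell in D1D2KO cells, with medians of -0.13 and -0.10. The D1D2KO call of Lcor, chosen after its values were seen, was lost with the replicate block (limma adjusted p = 0.0601). Ppargc1a, the coactivator of mitochondrial genes, rose by 0.93 (limma adjusted p = 1.96e-05) in WT and 1.56 (adjusted p = 3.19e-08) in D1D2KO cells, and its relative Ppargc1b by 0.76 and 1.51. Ncoa1, a steroid receptor coactivator, rose by 0.48 and 0.63. Ncoa3, of the same coactivator family, fell by 0.82 (adjusted p = 6.16e-07) and 1.08 (adjusted p = 1.33e-08). In WT cells Ncoa4 (0.03) and the corepressor enzyme Hdac3 (0.21) had no call. In D1D2KO cells both were called higher, by 0.52 (limma adjusted p = 0.0157) and 0.27 (adjusted p = 0.0125).

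**Figure D3:**
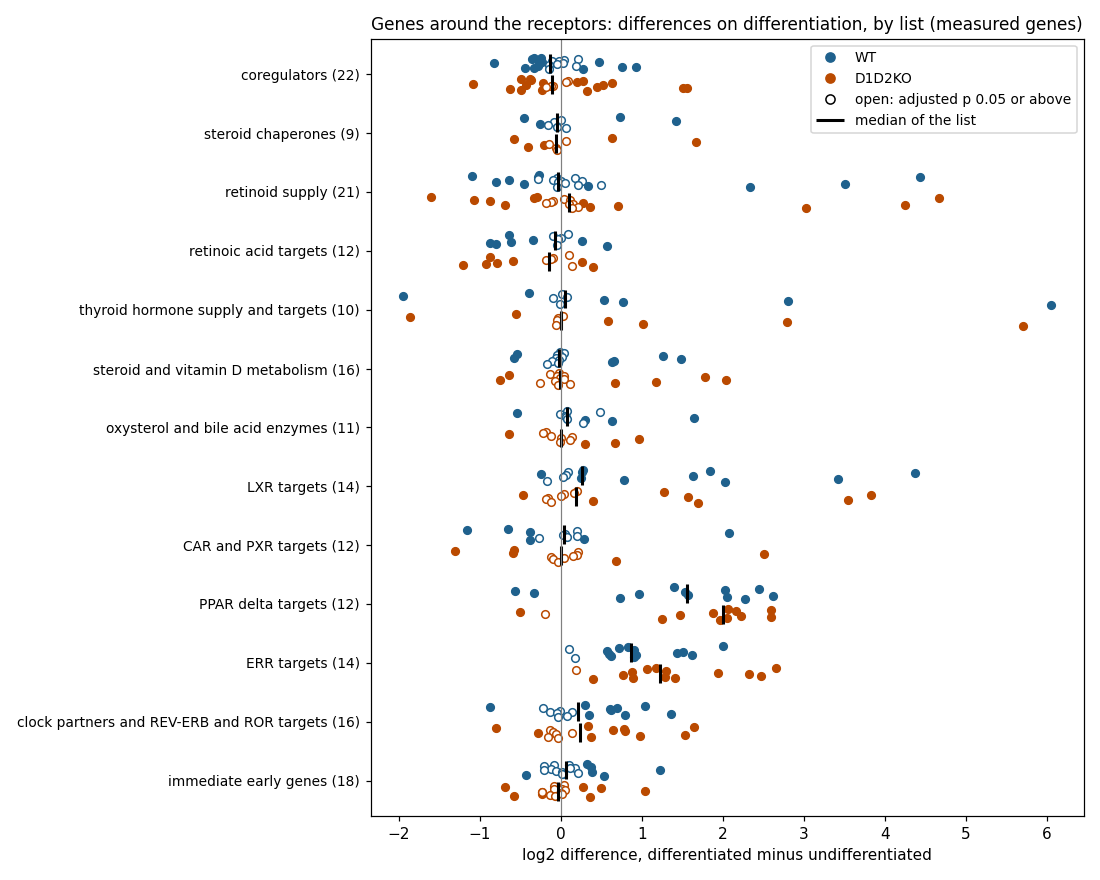
Log2 differences on differentiation (x axis, differentiated minus undifferentiated) of single genes in 13 lists of coregulators, ligand enzymes and known receptor targets, with WT and D1D2KO cells in separate colours, filled points for called genes, open points for an adjusted p of 0.05 or above and a black line for each list's median. In WT, targets of estrogen-related receptors (median 0.86), of PPAR delta (1.55) and of LXR (0.27) lie mostly to the right of 0. The remaining lists lie on both sides of it.

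The heme receptors of the circadian clock did not move as a pair. Nr1d2, REV-ERB beta, is a repressor of the clock gene Bmal1. Its signals were 8.24, 8.16 and 8.39 in WT undifferentiated and 7.51, 7.62 and 7.49 in WT differentiated cells. D1D2KO cells had 8.21, 8.14 and 8.11 before and 7.18, 7.20 and 7.29 after. All differentiated arrays lay below all undifferentiated ones. The change was -0.72 (SE 0.08, n = 3 against 3, limma adjusted p = 2e-06), to 60.7%, in WT and -0.93 (adjusted p = 6.12e-08), to 52.4%, in D1D2KO cells. Nr1d1, REV-ERB alpha, which is known to rise in adipocyte differentiation, changed by -0.06 (95% interval -0.23 to 0.11) and -0.08 (-0.25 to 0.10), without a call.

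ROR receptors bind the same DNA element as REV-ERB and activate through it. Rora signals were 7.34, 7.21 and 7.36 in WT undifferentiated and 7.92, 7.54 and 7.94 in WT differentiated cells. In D1D2KO cells they were 7.24, 7.23 and 7.38 before and 8.23, 8.13 and 7.80 after. The states were apart, with rises of 0.49 (SE 0.12, limma adjusted p = 0.00342) and 0.77 (adjusted p = 4.77e-05). Rorb, below the lower quartile on 3 arrays, changed by -0.21 and -0.19 without a call. Of 16 clock partners and REV-ERB or ROR targets, 8 rose and 1 fell in WT (median 0.22), and 8 rose and 2 fell in D1D2KO cells (median 0.24). Nfil3, a repressor of the clock output, rose by 1.36 and 1.53, the repressor gene Bhlhe40 by 1.04 and 1.65 and the period gene Per1 by 0.80 and 0.98. Bhlhe41, the close relative of Bhlhe40, fell by 0.88 and 0.80. The hour of harvest was not given for any sample.

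Retinoic acid receptors fell except Rara. Rarb, itself a textbook target of retinoic acid, had signals of 5.59, 5.55 and 5.55 in WT undifferentiated and 4.92, 5.00 and 5.10 in WT differentiated cells. The D1D2KO cells gave 5.23, 5.26 and 5.23 before and 4.93, 5.18 and 4.81 after. The states were apart in both genotypes, but the D1D2KO cells started lower and came closer to overlapping. The change was -0.56 (SE 0.09, n = 3 against 3, limma adjusted p = 0.000112), to 67.9%, in WT and -0.27 (adjusted p = 0.0291) in D1D2KO cells. The D1D2KO call was lost without any of 5 arrays of that comparison, all but the second differentiated one (adjusted p up to 0.135), and after array centring, with array weights or with only the groups compared (adjusted p = 0.0677, 0.152 and 0.0536). Rarg, the form with high expression in mesenchyme and skin, fell by 0.42 (adjusted p = 0.00133) and 0.50 (adjusted p = 0.000239). Rara differed by 0.18 (adjusted p = 0.102) and 0.06, without a call.

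Retinoid handling moved in both directions. Of 21 genes of retinoid uptake, synthesis and breakdown, 4 rose and 6 fell in WT (median -0.04), and 6 rose and 6 fell in D1D2KO cells (median 0.10). The D1D2KO call of Cyp26c1, chosen after its values were seen, was lost with the replicate block (limma adjusted p = 0.051). The retinol carrier Rbp4, an adipokine, rose by 3.51 and 4.25, the retinol saturase Retsat by 2.34 and 3.02 and Aldh1a7, an aldehyde dehydrogenase, by 4.43 and 4.67. Aldh1a2, the main retinoic acid synthase of the embryo, fell by 1.10 and 1.60. Of 12 retinoic acid targets, 2 rose and 5 fell in each genotype, with medians of -0.07 and -0.15. Crabp2, Cyp26a1, Cyp26b1, Dhrs3 and Stra6 are counted in both of these retinoid lists. Among those that fell, the homeobox genes Meis2 (-0.88 and -0.93) and Meis1 (-0.62 and -0.79) and the retinoic acid carrier Crabp2 (-0.63 and -0.87) changed alike in direction. Cyp26b1, the retinoic acid hydroxylase, changed by 0.01 and -0.12 without a call.

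The thyroid hormone receptors differed from each other. Thrb, the beta form, had signals of 5.87, 5.66 and 5.77 in WT undifferentiated and 6.10, 6.17 and 6.35 in WT differentiated cells. Signals in D1D2KO cells were 6.03, 5.58 and 6.09 before and 6.48, 6.69 and 6.29 after. The states did not overlap, with rises of 0.44 (SE 0.13, limma adjusted p = 0.0136) in WT and 0.59 (adjusted p = 0.0014) in D1D2KO cells. The WT call was lost without the second undifferentiated or the third differentiated WT array (adjusted p up to 0.0675). Thra, the alpha form, fell by 0.21 (adjusted p = 0.043) in WT, a call lost without any of 8 arrays (adjusted p up to 0.166), after centring (adjusted p = 0.0669) or quantile normalization (0.099), with the replicate block (0.0652) and with only the groups compared (0.0928), and changed by -0.08 in D1D2KO cells. The 8 arrays were the first and the third of each WT group, the 3 D1D2KO undifferentiated arrays and the second D1D2KO differentiated array. Of 10 genes of thyroid hormone supply and response, 4 rose and 2 fell in each genotype, with medians of 0.05 and 0.00. Thrsp, a lipogenic thyroid hormone target, rose by 6.05 and 5.70, and the malic enzyme Me1 by 2.81 and 2.79. Dio2, the deiodinase that makes active thyroid hormone in brown fat, fell by 1.94 and 1.86.

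Vdr, the vitamin D receptor, fell by 0.23 in D1D2KO cells (SE 0.08, limma adjusted p = 0.0259), from between 5.14 and 5.23 to between 4.90 and 4.98, and changed by 0.02 in WT cells. This D1D2KO call was lost after array centring (adjusted p = 0.0546) and without any of 5 arrays, the 3 undifferentiated and the second and the third differentiated D1D2KO ones (adjusted p up to 0.0994).

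The NR4A genes are immediate early genes, induced within an hour by cyclic AMP and growth factors, and their protein acts without a ligand. Nr4a1 signals were 6.87, 7.09 and 6.72 in WT undifferentiated and 6.08, 6.52 and 6.16 in WT differentiated cells. Those of D1D2KO cells were 6.55, 6.76 and 6.68 before and 6.01, 5.94 and 5.91 after. Differentiated arrays lay below undifferentiated ones throughout, by 0.64 in WT (a change of -0.64, SE 0.12, limma adjusted p = 0.000281) and 0.71 in D1D2KO cells (-0.71, adjusted p = 8.56e-05). Nr4a2 fell by 0.44 (adjusted p = 0.000443) and 0.46 (adjusted p = 0.000212). Nr4a3 lay below the lower quartile on 10 arrays, so its signal cannot be told from background there. Its change in WT was -0.30 (limma adjusted p = 0.0208), a call lost without the second undifferentiated or the second differentiated WT array (adjusted p up to 0.129), and in D1D2KO cells it was -0.19 (adjusted p = 0.139).

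Other immediate early genes did not move as a block. Of 18 measured, 5 rose and 1 fell in WT, with a median of 0.07, and 4 rose and 4 fell in D1D2KO cells, with a median of -0.03. The shares called, 33.3% in WT and 44.4% in D1D2KO cells, stand beside 34.1% and 36.7% of all genes. In WT, 3 were called without the third differentiated array, and in D1D2KO cells 5 without the first or the second undifferentiated array. Fosl1, an AP-1 subunit, rose by 1.23 in WT cells and 1.04 in D1D2KO cells, and Myc by 0.54 and 0.36. Egr1, the zinc finger factor, fell by 0.68 (limma adjusted p = 0.000977) in D1D2KO cells, and its WT change of -0.20 did not pass (adjusted p = 0.312). Jun (0.02) and Dusp1 (0.11) had no call in WT cells. In D1D2KO cells Jun was called lower (-0.23, limma adjusted p = 0.0257, and 0.057 after array centring). Dusp1 was called higher there (0.27, adjusted p = 0.0158).

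The COUP-TF receptors are orphans that repress, and in preadipocytes they hold back differentiation. Nr2f2, COUP-TFII, had signals of 7.94, 7.81 and 7.80 in WT undifferentiated and 7.60, 7.62 and 7.25 in WT differentiated cells. D1D2KO cells had 7.72, 7.66 and 7.72 before and 7.002, 6.99 and 7.32 after. The states were apart in each genotype. The change was -0.36 (SE 0.11, limma adjusted p = 0.0151) in WT, lost without the first undifferentiated or the third differentiated WT array (adjusted p up to 0.0953), and -0.60 (adjusted p = 0.00026) in D1D2KO cells.

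Nr2f1, COUP-TFI, fell in parallel. Its signals were 6.23, 6.16 and 6.11 in WT undifferentiated and 5.75, 5.89 and 5.40 in WT differentiated cells. In D1D2KO cells they were 5.95, 6.004 and 6.18 before and 5.42, 5.39 and 5.62 after. Again no differentiated array reached an undifferentiated one, with changes of -0.49 (SE 0.11, limma adjusted p = 0.00248) and -0.57 (adjusted p = 0.000586). Nr2f6, the third of the group, had no call (-0.00 and -0.18).

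The testicular receptors also differed from each other. Nr2c2 signals were 8.43, 8.44 and 8.38 in WT undifferentiated and 8.16, 8.03 and 8.01 in WT differentiated cells. The D1D2KO cells gave 8.41, 8.30 and 8.23 before and 7.92, 7.82 and 7.68 after. The states were apart, with changes of -0.35 (SE 0.09, limma adjusted p = 0.00381) and -0.50 (adjusted p = 0.000133). Nr2c1 differed by 0.13 and 0.21 without a call. Nr2c2ap fell by 0.29 in D1D2KO cells (adjusted p = 0.0131), a call lost without the second undifferentiated or the third differentiated D1D2KO array (adjusted p up to 0.0585).

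Hnf4a, best known as a liver and gut regulator, rose by 0.31 (limma adjusted p = 0.0102) in WT cells, from between 5.14 and 5.35 to between 5.45 and 5.72. The call was lost without the second undifferentiated or the third differentiated WT array (adjusted p up to 0.0684). In D1D2KO cells it was between 5.68 and 5.83 in both states and changed by 0.07. Hnf4aos had no call. The summed signal of 7 liver markers lay between 7.09 and 7.50 over all groups, with 2 to 4 of the 7 below the lower quartile on every array of a group, and its part in the Hnf4a result was not tested.

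The remaining members had no call in any comparison. Besides the FXR genes and Esrrb, those below the lower quartile on all 12 arrays were Hnf4g, Nr0b1, Nr0b2 and Nr5a2. Nr0b1 and Nr0b2 lack a DNA-binding domain and repress other receptors, and Nr5a1 and Nr5a2 drive steroid and bile acid genes. Nr6a1, a germ cell repressor, Nr5a1 and Nr2e1, a neural stem cell receptor that was below the lower quartile on 7 arrays, lay above it in part or throughout. In all, 19 receptors passed no test. On differentiation the uncalled receptors ranged from -0.24 (Nr1h4) to 0.19 in WT and from -0.19 (Rorb) to 0.21 (Nr2c1) in D1D2KO cells. Targets of CAR and PXR, drug sensors that the rule left out, were measured for 12 genes, of which 2 rose in each genotype and 4 in WT and 3 in D1D2KO cells fell. Alas1, of heme synthesis, rose by 2.07 and 2.51, and the drug exporter Abcb1b fell by 1.15 and 1.31.

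D1D2KO and WT cells of the same state differed in few receptors. In undifferentiated cells 3 of 40 receptors (7.50%) passed, 1 higher and 2 lower, against 8.02% of all genes (4.40% higher and 3.62% lower). In differentiated cells 5 of 40 (12.5%) passed, 0 higher and 5 lower, against 13.7% of all genes, of which 6.25% were higher and 7.42% lower. These shares lie near the background, so the counts say little about receptors as a group. Under quantile normalization the differentiated split became 2 higher (Rxra 0.31 and Esrra 0.34) and 3 lower. Single arrays also moved the counts. The undifferentiated count was 0 without the second WT array and 1 without the first WT or the first or the third D1D2KO array of that state, and the differentiated count was 2 without the second WT and 1 without the second D1D2KO array. The median receptor difference was 0.05 and 0.10, beside 0.02 and 0.03 over all genes. Arrays of the genotypes did not overlap for 12 of the 40 receptors in undifferentiated and 16 in differentiated cells, beside 39.3% and 30.9% of all genes.

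Pgr was the receptor with the largest genotype difference in each state. In undifferentiated cells it was lower in D1D2KO by 0.47 (-0.47, limma adjusted p = 0.0118), at 72.2% of WT, but this call was lost without the first or second WT or the first or the third D1D2KO undifferentiated array (adjusted p up to 0.0747). In differentiated cells it was at 62.2% of WT (-0.69, SE 0.10, adjusted p = 0.000334), a call that held without each array in turn (adjusted p up to 0.00274). All 3 D1D2KO signals lay below all 3 WT signals in both states. The D1D2KO differentiated signals lay close to the lower quartile, so the size of the difference in that state is uncertain.

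Esr1 stood at 74.5% of WT in differentiated D1D2KO cells (-0.43, limma adjusted p = 0.0128), without overlap. That call was lost without the second D1D2KO differentiated array (adjusted p = 0.058) and with only the groups compared (adjusted p = 0.0508). Nr1d2 was at 80.0% (-0.32, adjusted p = 0.0168), lost without the second WT or the first or second D1D2KO differentiated array (adjusted p up to 0.0647), under quantile normalization (adjusted p = 0.0735) and with only the groups compared (adjusted p = 0.0628). Vdr was at 82.5% (-0.28, adjusted p = 0.0248), lost without the second WT or the second or the third D1D2KO differentiated array (adjusted p up to 0.0841) and with only the groups compared (adjusted p = 0.0991). Nr2f2 was at 76.5% (-0.39, adjusted p = 0.0284), although its groups overlapped. Its call was lost without the first or second array of either differentiated group (adjusted p up to 0.116), under quantile normalization (adjusted p = 0.0866), with the replicate block (0.0559) and with only the groups compared (0.0891). Fibroblast markers were lower in the same cells, with 6 of 12 called lower and 0 higher, and 7 of 11 adipocyte markers were called higher (4, 1, 2 and 3 of them without the first or second WT or the first or second D1D2KO differentiated array). Summed signal of 10 muscle markers lay between 11.39 and 11.53 in WT and between 10.30 and 10.42 in D1D2KO differentiated cells, with 2 called higher and 4 lower. The part of these markers in the receptor differences was not tested.

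In undifferentiated cells Hnf4a was at 134% of WT (0.43, limma adjusted p = 0.0094), lost without the second WT array (adjusted p = 0.0704). Rarb was at 80.0% (-0.32, adjusted p = 0.0419), lost without any of the 6 undifferentiated arrays (adjusted p up to 0.139) and with the replicate block (adjusted p = 0.0595). Both genes were apart between the genotypes, as were 39.3% of all genes in this state. In the same state the summed muscle markers lay between 11.82 and 12.02 in WT and between 10.88 and 11.16 in D1D2KO cells, with 2 of 10 called higher and 4 lower, and Myh11, a smooth muscle myosin, chosen after its values were seen, differed by -2.39. Fibroblast markers had 0 of 12 called. The part of these markers in the Pgr, Hnf4a and Rarb differences was not tested. Nr2e1 (0.43, adjusted p = 0.0595) and Esrrg (0.36, adjusted p = 0.0506) did not pass, but did with array weights, with the replicate block and with only the groups compared.

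**Figure D4:**
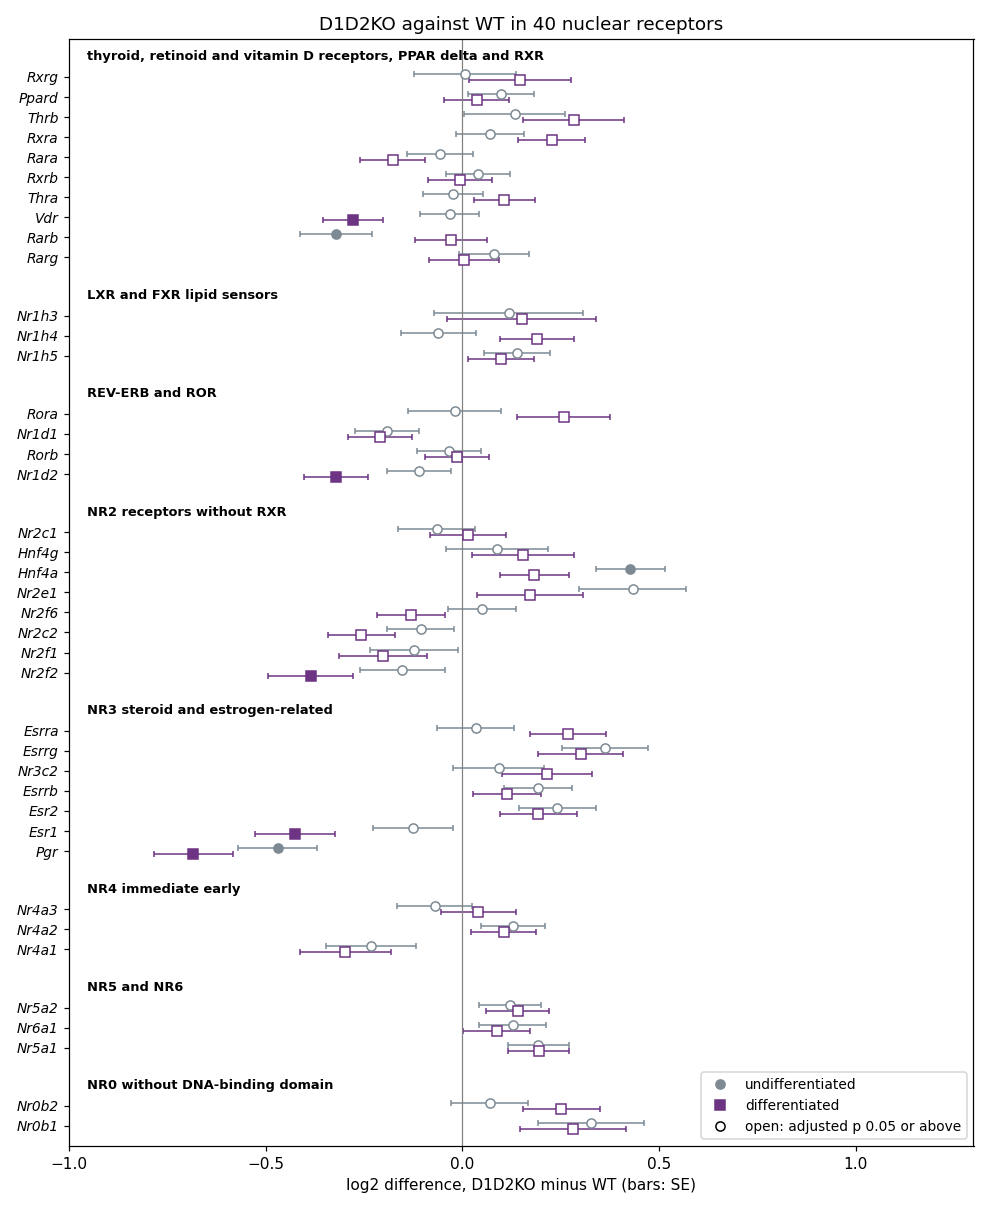
Log2 differences between D1D2KO and WT cells (x axis, D1D2KO minus WT) of the 40 receptors in undifferentiated and differentiated cells, with bars for the standard error and open symbols for an adjusted p of 0.05 or above. Pgr lies lowest in both states (-0.47 and -0.69), and the 5 filled differentiated symbols all lie below 0.

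Among receptor targets, several of LXR were lower in differentiated D1D2KO cells, where Nr1h3 itself had no call (0.15). Of 14 measured, 0 were higher and 4 lower, with a median of -0.14 beside 0.03 over all genes. In this comparison 6.25% of all genes were higher and 7.42% lower. Scd2 differed by -0.72 (limma adjusted p = 0.000415), Scd1 by -0.54 (adjusted p = 0.00113), Abcg1 by -0.45 (adjusted p = 0.00417) and Srebf1 by -0.43 (adjusted p = 0.00843). These 4 calls held without each array in turn. Of 11 oxysterol and bile acid enzymes 0 were higher and 3 lower. Cyp7b1, which starts oxysterol clearance, differed by -0.90 (adjusted p = 8.89e-05). Ch25h, which makes an LXR ligand, differed by -0.86 (adjusted p = 0.00947). Ebp of cholesterol synthesis differed by -0.35 (adjusted p = 0.0114, and 0.0608 with only the groups compared). Ligand levels were not measured.

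Retinoic acid targets in differentiated D1D2KO cells were lower for 5 of 12 and higher for 2, with a median of -0.18, against 6.25% higher and 7.42% lower over all genes, and 4 were called without the second WT differentiated array, all lower. Tgm2, a transglutaminase induced by retinoic acid, differed by -0.74 (limma adjusted p = 9.75e-05), Rai14 by -0.66, Meis1 by -0.42 and Crabp2 by -0.38. Of 21 genes of retinoid supply 2 were higher and 4 lower, with Aldh1a1, a retinoic acid synthase, at -0.76 (adjusted p = 2.63e-05). Targets of estrogen-related receptors went the other way, with 6 of 14 higher and 0 lower (median 0.26), but only 2 were called without the second WT differentiated array and 3 without the first or second D1D2KO one. Which regulator set these target differences was not tested. Of 22 coregulators 3 were higher and 2 lower (median -0.05). Ppargc1b (0.78, limma adjusted p = 0.000579) and Ppargc1a (0.62, adjusted p = 0.0056) were among the higher ones, and both calls held without each array in turn.

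No receptor passed the test of whether D1D2KO cells responded to differentiation differently from WT cells, against 1.46% of all genes (0.747% higher and 0.712% lower). With limma 2 receptors had an unadjusted p under 0.05, Vdr (-0.25, 95% interval -0.47 to -0.02) and Rarb (0.29, 0.02 to 0.57), and 0 were called in each of the other fits run. The differences ranged from -0.30 (Esr1, 95% interval -0.61 to 0.00) to 0.29 (Rarb). For Pgr, whose D1D2KO differentiated signals lay close to the lower quartile, the difference was -0.22, with an interval from -0.52 to 0.08. A missing call does not show that the responses were alike, since intervals of this width leave room for differences of moderate size.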

How the data were processed

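The authors deposited 1 table of 35556 probe sets by 12 arrays, whose values (1.15 to 14.17) were taken as log2 signals normalized by the authors. The log base is inferred from the values, and the summary and normalization steps are not given in the sources used here. Column medians were 5.61 to 5.69 and 0 columns were identical.

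Probe sets were named through the platform annotation: 21789 had 1 gene, 1621 several and 12146 none listed, and only the first kind was used. Where a gene had several probe sets (999 genes), the brightest on average over the 12 samples was kept, which left 19938 genes. No filter on low signal was applied. Sample titles gave the groups and the replicate numbers. All 12 samples entered 1 model of 4 group means (limma 3.58.1, R 4.3.3, lmFit and eBayes, two-sided), and a call required an adjusted p (Benjamini-Hochberg, over all genes) below 0.05. The test was checked on simulated data.

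Members and lists were chosen with earlier results of these data known. Values per sample are given for members called with a difference of at least 0.5, other members by level, range or count. From each list the text draws on up to 4 called genes with the largest difference and up to 2 uncalled genes with the highest mean. The labels state no pairing, and the main fits used none. Between the D1D2KO states, deviations of equal replicate numbers correlated at 0.101 to 0.176, all above those of unequal numbers (-0.147 to 0.0522). In no other comparison was this so. A pairing was therefore taken as possible there alone, and it rests only on these weak correlations. Promoter windows came from RefSeq on GRCm38.p6. Alternatives were a 2-fold minimum, array weights, quantile normalization, array centring, the replicate block, averaged probe sets per gene, robust eBayes with a trend, a fit of only the groups compared, a fit of genes above the median signal and leaving out each array.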

Additional observations from a re-analysis of the deposited data

How the results depend on the processing

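Of 46 called results of single members, 30 stayed called without each array in turn, 37 under every other alternative but the 2-fold minimum, and 0 reversed direction in any alternative run. Counts of receptors called on differentiation were 14 to 20 in WT and 16 to 18 in D1D2KO cells without single arrays. With a 2-fold minimum they fell to 3 in each genotype, and the genotype counts to 0 in each state. In undifferentiated cells the genotype count of 3 became 1 among genes above the median signal (where 19 of the 40 receptors were tested), 6 with array weights, 5 with only the groups compared and 0 to 4 without single arrays. In differentiated cells the count of 5 became 1 with only the groups compared and 1 to 6 without single arrays. The cause was not tested. With the replicate number as a block the counts were 19, 18, 4, 4 and 0. On differentiation in D1D2KO cells, the comparison taken as possibly paired, the block changed no receptor's call. Among the list genes it ended the calls of Lcor, Cyp26c1, Sult2b1 and Hspa8. In the other comparisons, where equal numbers were not taken as pairs, it ended the receptor calls named for it above and no other receptor's. It added 1 receptor call on differentiation in WT and 2 in undifferentiated cells (Nr2e1 and Esrrg). Calls of further list genes also ended there, among them the LXR target Abcg5 on differentiation in WT (limma adjusted p = 0.0693). Only the groups compared could not be applied to the difference between the responses. With 3 arrays per group, no detection calls and unknown normalization, small differences and those of the 7 receptors at background signal could not be resolved.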

Other observations

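The receptors lie in a pair of similar gene clusters. On chromosome 11 the order is Thra, Nr1d1 and Rara, with 6 other protein-coding genes between, and Thra and Nr1d1 overlap. On chromosome 14 it is Rarb, Thrb and Nr1d2, with 1 other gene between. On differentiation in WT cells the chromosome 11 members changed by -0.21 (Thra), -0.06 (Nr1d1) and 0.18 (Rara), whereas the chromosome 14 members changed by -0.56 (Rarb), 0.44 (Thrb) and -0.72 (Nr1d2). In D1D2KO cells the values were -0.08, -0.08 and 0.06 against -0.27, 0.59 and -0.93. Neighbours on chromosome 14 thus moved in opposite directions, and the 2 clusters were not tested against each other. Whether the array separates the strands was not given, so the signals of the overlapping Thra and Nr1d1 are uncertain.

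The 7 receptors below the lower quartile on all arrays were mostly a little higher in D1D2KO cells, 6 of 7 in undifferentiated and 7 of 7 in differentiated cells, with medians of 0.12 and 0.15. The 4985 genes with the lowest mean signal had medians of 0.12 and 0.11. After quantile normalization the medians were 0.06 and 0.12 for the 7 receptors and 0.08 and 0.07 for those genes.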
